A study of Schizosaccharomyces pombe with 4 samples.

Results

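The malate genes mae1 and mae2 of fission yeast (Schizosaccharomyces pombe) were described on 4 tiling arrays of trimethylated histone H3 lysine 9 (H3K9me3). They are 2 of the 4930 protein-coding genes that had at least 2 tiles, and each holds 6 gene tiles of the 41551 tiles on the array. Tiles were taken by the chromosome and position in their names, with 10 kb on both sides of each gene, which gave 72 tiles around mae1 and 71 around mae2. The genes were chosen by their H3K9me3 ratio, which was high and differed between these same arrays, so their levels and differences are given as a description, and no test was made.

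The study compared cells of 2 genotypes, each with tetR-clr4 switched OFF and ON, and hybridised 1 array per group: clr3-CDx2 OFF, clr3-CDx2 ON, wt OFF and wt ON. The labels name tetR-clr4 for all 4 groups. It is a fusion of the bacterial Tet repressor, which binds tet operator DNA, to Clr4, the methyltransferase of histone H3 lysine 9. Cultures of both genotypes were kept at 32 °C in minimal medium, for 20 generations without thiamine and then for 5 generations with 5-fluoroorotic acid at 850 µg/ml, and a portion was fixed in 3% paraformaldehyde as the ON sample. The remaining cells were grown for 14 more generations with thiamine (5 µg/ml) and tetracycline (2.5 µg/ml) and fixed as the OFF sample. The labels do not explain clr3-CDx2, and nothing was assumed beyond its name. Over the 8 tiles of clr3, which encodes a histone deacetylase, the log2 ratio was -1.32 in clr3-CDx2 OFF and -1.39 in clr3-CDx2 ON, against 0.66 in wt OFF and 0.56 in wt ON. The 2 genotypes thus differed at clr3, although the labels give no value to hold this against. Because each group has 1 array, there is no replicate error to hold a difference against. The switch cannot be told apart from the later harvest, from the end of 5-fluoroorotic acid treatment or from other effects of thiamine and tetracycline. The 4 arrays shared 1 slide and 1 scan. Of the tiles, 578 were marked non-uniform in clr3-CDx2 OFF and 190 to 261 in the other groups, and these spots were left out on the array concerned. Input signals had a median of 417 to 490 times the background and ChIP signals of 137 to 166 times.

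Mae1 is the permease of the plasma membrane that carries malate and succinate into the cell with protons. Mae2 is the malic enzyme of the cytosol, which decarboxylates malate to pyruvate, and with Mae1 it lets fission yeast degrade external malate during fermentation. H3K9 methylation in this yeast is laid down by Clr4 and is known from the pericentromeres, the silent mating-type genes and the subtelomeres, where it marks heterochromatin. The tlh genes at the subtelomeres, which encode helicases of the RecQ family, lie within such heterochromatin.

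In the reference genome (RefSeq, build ASM294v3), mae1 (SPAPB8E5.03) spans chrI:4912249-4914182 on the plus strand and mae2 (SPCC794.12c) spans chrIII:275261-277262 on the minus strand. Each has 1 coding exon, at 4912297 to 4913613 in mae1 and at 275514 to 277211 in mae2. The array's own positions differ from the reference by an offset in each chromosome arm, 4400 bp for mae1 and 100 bp for mae2, and after these shifts the tiles over each annotated gene were the 6 gene tiles. Both genes lie far from a chromosome end but have close relatives at the ends. A stretch of 1259 bases, from 578 bp upstream of mae1 through the 5′ part of its coding sequence (chrI:4911671-4912929), was 86.8% identical to chrI:5699-6974 and 86.7% identical to chrII:4525575-4526848. These places are annotated as the pseudogenes SPAC212.10 and SPBCPT2R1.10. A stretch of 2064 bases that holds 96.0% of mae2 and all of its coding sequence (chrIII:275342-277405) was 87.3% identical both to chrI:7392-9426 and to chrII:4523122-4525157, annotated as the pseudogenes SPAC212.09c and SPBCPT2R1.07c. The 3′ part of mae2 was also 84.6% identical to chrI:5578295-5579133, where SPAC750.08c, annotated as a malic enzyme gene, runs to the last base of the reference. At the left end of chromosome I and at the right end of chromosome II the copy of mae1 and the copy of mae2 are neighbours, 417 bp apart in both places.

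Likeness within these stretches was uneven, and single stretches as long as a probe were nearly or fully identical. The longest run without a difference was 78 bases in mae2 and 47 bases in mae1. The sequences below are shown because the array carries 60-base probes and a probe of such a sequence meets near-identical DNA at the chromosome ends. They are the 60 coding bases most like the copies within 100 bp of the 2 tiles of each gene that read highest in wt OFF. The probe sequences themselves were not used here, so these windows stand for the neighbourhood of a tile and are not the probes. The mae1 windows are chrI:4912382-4912441 and chrI:4912762-4912821, plus strand, beside minus-strand chrI:6187-6246 and chrI:5807-5866. The mae2 windows are chrIII:276093-276152 and chrIII:276658-276717, minus strand, beside plus-strand chrI:8636-8695 and chrI:8071-8130. Capitals mark bases that differ between gene and copy, and the copies at the right end of chromosome II have the same bases as those at the left end of chromosome I in all 4 windows.
mae1, tile 4908000: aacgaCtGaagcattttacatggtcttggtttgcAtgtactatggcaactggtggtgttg
copy at the left end of I: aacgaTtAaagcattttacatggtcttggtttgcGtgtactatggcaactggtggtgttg
mae1, tile 4908300: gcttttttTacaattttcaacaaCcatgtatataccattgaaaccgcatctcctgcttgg
copy at the left end of I: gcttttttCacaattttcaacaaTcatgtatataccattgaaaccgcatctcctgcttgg
mae2, tile 276000: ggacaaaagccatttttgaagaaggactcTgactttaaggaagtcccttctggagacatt
copy at the left end of I: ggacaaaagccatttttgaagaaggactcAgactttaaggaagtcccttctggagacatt
mae2, tile 276600, the same in the copy: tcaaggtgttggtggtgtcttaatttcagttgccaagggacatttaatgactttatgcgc
The windows differed from the copies at 3 and 2 bases in mae1 and at 1 and 0 bases in mae2. The names of some tiles carry a letter f or m that the files do not explain. Of the tiles with such a letter, called marked tiles from here on, 90.7% to 97.0% per chromosome arm lay in stretches at least 80% identical to another place in the genome, against 0.643% to 1.24% of the others. The offset of each arm was chosen for the best match of marked tiles to such stretches, so these shares are not independent of it. All 6 gene tiles of mae2 are marked. In mae1 the first 2 gene tiles are marked, as is the tile just upstream of the gene, and the remaining 4 gene tiles are not.

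Across mae2, all 6 gene tiles were enriched for H3K9me3 on each array. Values are the log2 ratio of precipitated DNA (ChIP) to whole-cell extract DNA (input), less the median tile of the array. From the 3′ to the 5′ end of the gene, the tiles read 3.48, 4.04, 5.18, 4.13 and 4.67 in clr3-CDx2 OFF, with the fifth tile left out there as non-uniform (5.10 if kept). In clr3-CDx2 ON they read 2.27, 2.84, 3.64, 2.94, 3.56 and 3.06. In wt OFF they read 3.44, 4.29, 5.20, 4.22, 5.07 and 4.63. In wt ON they read 2.52, 3.07, 4.03, 3.39, 3.93 and 3.39. The third tile was the highest and the first the lowest on each array, so the outline along the gene was alike in the 4 groups. The median over the tiles was 4.13 ± 0.65 in clr3-CDx2 OFF, 3.00 ± 0.51 in clr3-CDx2 ON, 4.46 ± 0.64 in wt OFF and 3.39 ± 0.56 in wt ON, where the error is the SD over 5 or 6 tiles and shows the spread along the gene, not a replicate error. These medians are 17.5-fold, 8.02-fold, 22.01-fold and 10.5-fold over the median tile of the array, in the same order of groups. Among the 4930 measured genes, mae2 ranked 22 from the top in clr3-CDx2 OFF, 13 in clr3-CDx2 ON, 4 in wt OFF and 10 in wt ON. DNA was sheared to about 1000 bp and tiles are 300 bp apart, so neighbouring tiles share fragments.

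The enrichment at mae2 ended within 1 tile of the matching stretch on both sides. Past the 3′ end, the tile at 275100 read -0.18 in clr3-CDx2 OFF, -0.53 in clr3-CDx2 ON, -0.39 in wt OFF and -0.40 in wt ON. At the 5′ end, the tile at 277200 still lies in the matching stretch but is not marked, and it read 0.26 in clr3-CDx2 OFF, -0.58 in clr3-CDx2 ON, 0.22 in wt OFF and -0.24 in wt ON. Between this tile and its marked neighbour the ratio differed by over 3 on the log2 scale on each array. Around it the sequence is at most 85.7% identical to a copy over 60 bases, against 93.3% to 100% around the 6 marked gene tiles.

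In mae1, the tiles that read 1.54 or more were the 3 marked ones, which cover the start of the gene, and the rest of the gene was at or below the array median apart from 1 tile. The tile at 4908000, just inside the gene start, read 6.55 in clr3-CDx2 OFF, 4.46 in clr3-CDx2 ON, 6.41 in wt OFF and 5.17 in wt ON. The next, at 4908300, read 4.99 in clr3-CDx2 OFF, 3.41 in clr3-CDx2 ON, 4.88 in wt OFF and 4.08 in wt ON. On each array these 2 tiles stood above all other tiles within 10 kb of the gene. The marked tile just upstream of the gene, at 4907700, read 2.00 in clr3-CDx2 OFF, 1.54 in clr3-CDx2 ON, 2.86 in wt OFF and 1.96 in wt ON. Downstream of the matching stretch the tile at 4908600 read 0.75 in clr3-CDx2 OFF, 0.48 in clr3-CDx2 ON, 1.07 in wt OFF and 0.73 in wt ON. The last 3 gene tiles, which cover the 3′ part of the gene, read -1.37 to -0.57 in clr3-CDx2 OFF, -1.53 to -0.96 in clr3-CDx2 ON, and -1.34 to -0.87 in wt ON, and the 2 of them that were measured in wt OFF read -0.33 and -0.56. Upstream, the tile at 4907400 is unmarked although it lies in the matching stretch, where 60 bases are at most 88.3% identical to a copy, against 95% to 96.7% around the 3 marked tiles. It read 0.42 in clr3-CDx2 OFF, -0.35 in clr3-CDx2 ON, 0.50 in wt OFF and -0.20 in wt ON. The high tiles of mae1 and of mae2 were thus the marked ones on all 4 arrays, while the unmarked tiles of the same stretches and of the same genes read 1.07 or less. A mark alone did not go with a high reading. Marked tiles outside the matching stretch read 1.28 or less in the mae1 window, and those at 268500 to 269100 near mae2 read -0.91 or less.

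**Figure D1:**
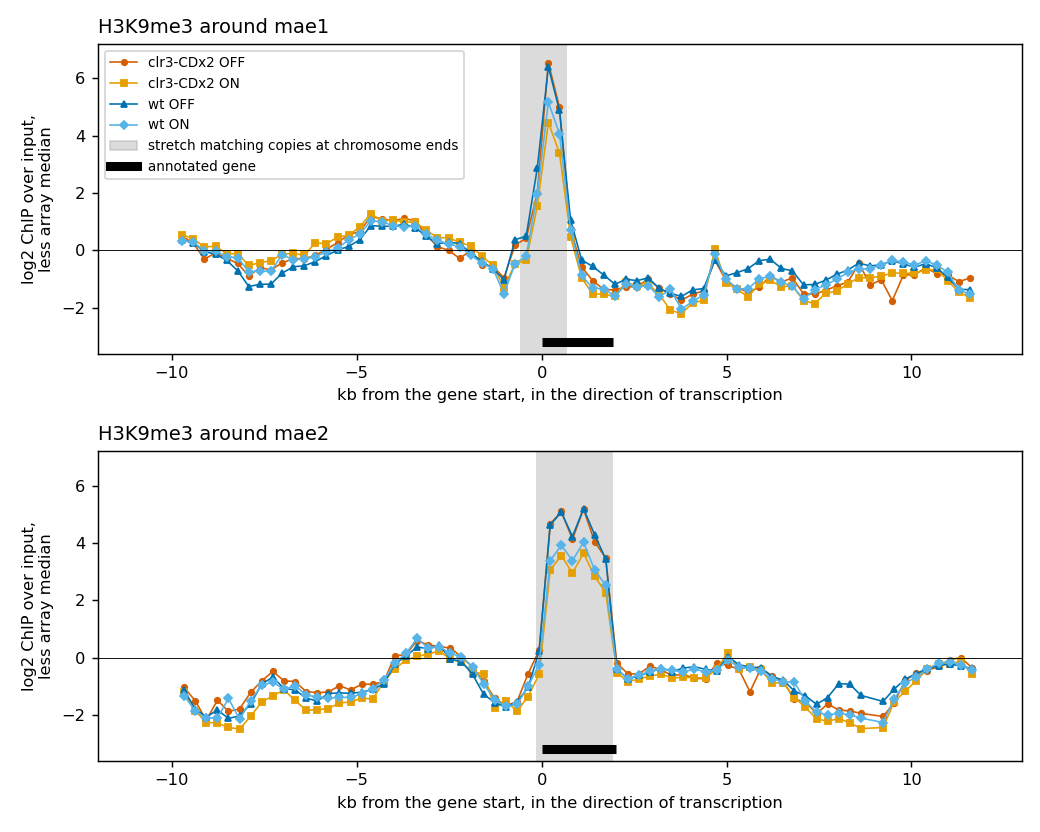
H3K9me3 around mae1 (top) and mae2 (bottom), as log2 ChIP over input less the array median, against kb from the gene start in the direction of transcription. Lines are the 4 arrays with non-uniform spots kept, black bars the annotated genes, grey the stretch that matches copies at chromosome ends. The 9 marked tiles in the grey stretches read 1.54 to 6.55, and no tile outside the grey stretches reads above 1.28.

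Because mae1 mixes high and low tiles, its median says little about the gene. Over its gene tiles the median was 0.09 ± 3.39 in clr3-CDx2 OFF, -0.24 ± 2.61 in clr3-CDx2 ON, 1.07 ± 3.17 in wt OFF and -0.07 ± 2.87 in wt ON (SD over 6 tiles, 5 in wt OFF). The higher value in wt OFF rests on 1 spot. The last gene tile, at 4909500, was non-uniform there and left out, and with it kept, at -0.86, the median in wt OFF was 0.37. Over the 3 marked tiles the median was 4.99 in clr3-CDx2 OFF, 3.41 in clr3-CDx2 ON, 4.88 in wt OFF and 4.08 in wt ON. Over the gene tiles outside the matching stretch it was -0.82 in clr3-CDx2 OFF, -1.24 in clr3-CDx2 ON, -0.33 in wt OFF and -1.09 in wt ON.

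**Figure D2:**
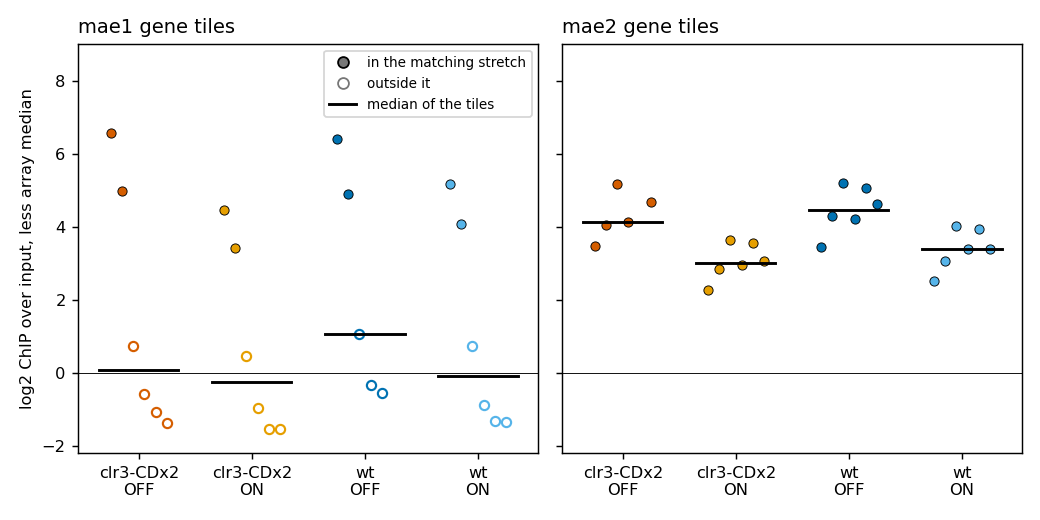
Log2 ChIP over input less the array median for the gene tiles of mae1 (left) and mae2 (right) in the 4 groups, in order of array position from left to right within a group. Filled points lie in the matching stretch, open points outside it, and bars are the medians over tiles. All mae2 tiles read 2.27 or more, while mae1 has 2 tiles at 3.41 or more and the rest at 1.07 or less.

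The ratio at the high tiles came with a high ChIP channel and, at the mae2 gene tiles and at tiles 4908000 and 4908300 of mae1, a low input channel. Over the mae2 gene tiles the ChIP channel, centred on the array median, had a median of 2.87 in clr3-CDx2 OFF, 2.47 in clr3-CDx2 ON, 3.16 in wt OFF and 2.53 in wt ON. The input channel had a median of -1.26 in clr3-CDx2 OFF, -0.42 in clr3-CDx2 ON, -1.34 in wt OFF and -0.66 in wt ON. Input was therefore below the array median on each array, and lower in OFF than in ON cells in both genotypes. Outside the matching stretches the median input was 0.17 to 0.24 on the 4 arrays around mae2 and 0.25 to 0.30 around mae1. Single tiles there were lower, with a lowest input of -1.53 to -1.66 on the 4 arrays around mae2 and -1.75 to -1.96 around mae1. At the mae1 tile 4908000 the input was -1.52 in clr3-CDx2 OFF, -0.12 in clr3-CDx2 ON, -1.49 in wt OFF and -0.57 in wt ON. Over the 8 marked gene tiles the SD of the input over the 4 arrays was 0.24 to 0.69, against a median of 0.06 over all tiles. An SD of this size was found in 2.59% of all tiles, and 65.4% of those lay in the pericentromeres, in the mating-type contig, within 50 kb of an end of chromosome I or II, at the ends of chromosome III or on unplaced clones. The low and shifting input is part of the ratio, and its own part in the differences given next is stated there.

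After the switch, mae2 read higher in OFF than in ON cells in both genotypes, by about 2-fold. In clr3-CDx2 the difference of medians was 1.13 (2.18-fold), with all 5 tiles measured on both arrays higher in OFF, by 1.18 to 1.61. In wt it was 1.07 (2.11-fold), with all 6 tiles higher in OFF, by 0.84 to 1.25. A gene was counted as higher when its median was greater by 1 or more (log2) and was 1 or more on either array of the pair. By this rule mae2 was higher in OFF in both genotypes, in a background of 0.872% of measured genes in clr3-CDx2 and 0.183% in wt (43 and 9 genes). The choice of mae2 used these differences, so its place among them is no further evidence. The median difference over all measured genes was 0.01 in both. On the ChIP channel alone mae2 differed by 0.40 in clr3-CDx2 and by 0.63 in wt, and its input by -0.83 and -0.68. Using the same 5 tiles on each array, the difference was 1.18 in clr3-CDx2 and 0.90 in wt. With normexp background correction it was 0.90 in clr3-CDx2 and 0.98 in wt. mae2 was thus no longer counted as higher in either genotype on the ChIP channel alone or with normexp, nor in wt on the same 5 tiles. With arrays scaled to an equal pericentromeric median, non-uniform spots kept, the difference was -0.53 in clr3-CDx2 and 0.13 in wt. With those spots left out of that median, an alternative chosen after seeing the data, it was 0.71 in clr3-CDx2 and -1.28 in wt. The direction thus turned with this scaling in one genotype or the other, depending on the spots behind the scale. The scale without those spots rests on unlike tile sets, such as 308 tiles in wt OFF and 295 in wt ON. Its values therefore cannot decide a direction.

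The 3 marked tiles of mae1 also read higher in OFF than in ON cells. Tile 4908000 was higher in OFF by 2.09 in clr3-CDx2 and by 1.23 in wt, and tile 4908300 by 1.58 in clr3-CDx2 and by 0.81 in wt. The tile upstream of the gene, 4907700, was higher by 0.46 in clr3-CDx2 and by 0.90 in wt. The unmarked gene tiles were higher in OFF too: 4 of 4 in clr3-CDx2, by 0.16 to 0.46, and 3 of 3 in wt, by 0.34 to 0.76. These ranges reach that of tile 4907700 in clr3-CDx2, and the unmarked tile 4907400 upstream was higher by 0.77 in clr3-CDx2 and by 0.70 in wt. The gene medians differed by 0.33 in clr3-CDx2 and by 1.14 in wt. By the wt value mae1 counted among the genes higher in OFF, but with the non-uniform spot kept the difference was 0.44, and with that tile left out of all arrays 0.34. The differences tile by tile carry no such mismatch.

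**Figure D3:**
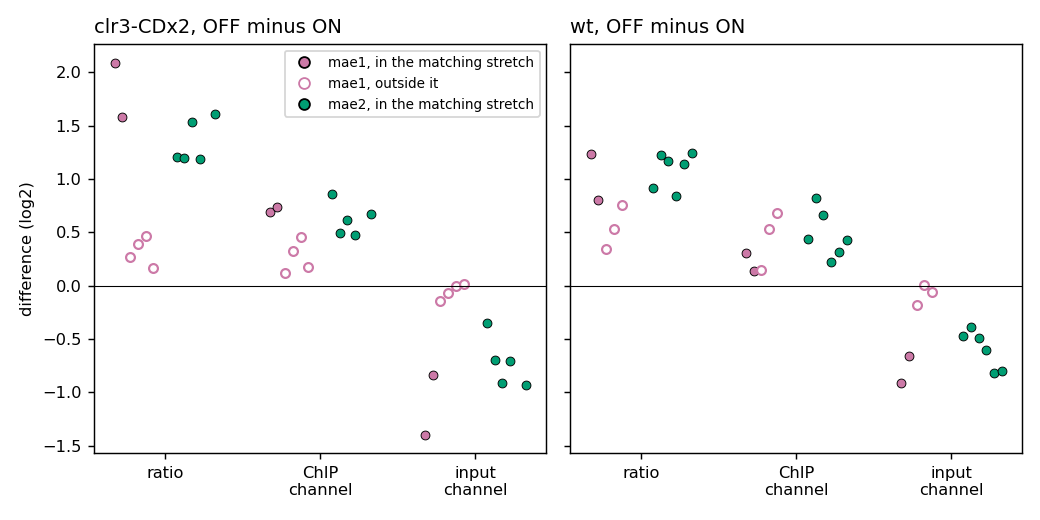
OFF minus ON differences (log2) at each gene tile of mae1 and mae2, in clr3-CDx2 (left) and wt (right), for the ratio, the ChIP channel and the input channel. Filled points lie in the matching stretch and open points outside it. Filled points are above 0 in the ratio and the ChIP channel and below 0 in the input channel in both genotypes.

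Heterochromatin elsewhere moved with these tiles. Over tiles measured on both arrays, the pericentromeres were higher in OFF by a median of 1.42 in clr3-CDx2 and 0.73 in wt, the mating-type contig by 1.18 and 0.76, and the subtelomeric gene tlh1 by 1.58 and 0.78, each pair in that order of genotypes. The marked tiles of mae2 differed by 1.21 in clr3-CDx2 and 1.16 in wt on the same measure, and those of mae1 by 1.58 and 0.90. Whether chromatin or the efficiency of precipitation and labelling differed between these arrays cannot be told apart where heterochromatic regions move together.

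Between genotypes, both genes differed by less than 2-fold. In ON cells, mae2 had 3.00 in clr3-CDx2 and 3.39 in wt, a difference of -0.38, with all 6 tiles lower in clr3-CDx2, at -0.44 to -0.23. In OFF cells it had 4.13 in clr3-CDx2 and 4.46 in wt, a difference of -0.33, which was -0.16 on the same 5 tiles in both groups. Tile by tile these 5 differed by -0.25 to 0.04, with 2 of 5 higher in clr3-CDx2. For mae1 the gene medians differed by -0.17 in ON cells and by -0.98 in OFF cells, and the OFF value was -0.28 with the non-uniform spot kept. Its 3 marked tiles differed by -0.71 to -0.42 in ON cells and by -0.86 to 0.15 in OFF cells. Neither gene was counted as differing between genotypes by the reported values, but alternatives changed this. With pericentromeric scaling mae2 differed by 0.50 in ON cells with non-uniform spots kept and by -2.04 without them. The scale without them compares unlike tile sets, 322 tiles in clr3-CDx2 ON and 295 in wt ON. By it the pericentromeres were higher in clr3-CDx2 ON (2.11) than in wt ON (1.41). Yet all 278 tiles measured on both arrays were lower in clr3-CDx2, so no difference of mae2 can be read from the -2.04. In OFF cells mae1 was counted as lower in clr3-CDx2 with normexp (-1.07) and on the ChIP channel alone (-1.13). The background of genes higher in clr3-CDx2 was 0.345% in ON cells and 0.791% in OFF cells, and that of genes lower was 0.122% in ON cells and 0% in OFF cells. In ON cells tlh1 and the pericentromeres were lower in clr3-CDx2 as well, with median tile differences of -0.73 and -0.79. Over the outer 50 kb of the chromosome ends the median tile difference was 0.10 at the left end of chromosome I, where the copies of both genes lie, 1.97 at its right end, and 0.03 and 0.34 at the left and right ends of chromosome II. At the left-end copies themselves it was -0.36 for mae1, with 4 of 4 tiles lower in clr3-CDx2, and -0.10 for mae2, with 3 of 4 lower. At the partial mae2 copy on the right end of chromosome I it was -0.29, with 2 of 2 lower.

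The switch difference in clr3-CDx2 less that in wt was 0.05 for mae2 and -0.81 for mae1 on gene medians. Tile by tile it was -0.02 to 0.37 in mae2, with 4 of 5 tiles above 0, and -0.29 to 0.86 in mae1. For mae1 it was -0.11 with non-uniform spots kept. Neither gene was counted, except mae2 at 1.99 with the pericentromeric scaling without non-uniform spots, which rests on unlike tile sets. With those spots kept, that scaling gave -0.66 for mae2. The background was 0.690% of genes with a larger switch difference in clr3-CDx2 and 0% with a smaller one.

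The copies at the ends of chromosome I are tiled as well. On each array the 2 left-end copies had a higher median than the marked tiles of the gene they resemble, although tile 4908000 of mae1 read higher than every tile of the copies. The 4 tiles at the mae1 copy on the left end had a median of 5.57 in clr3-CDx2 OFF, 4.03 in clr3-CDx2 ON, 5.37 in wt OFF and 4.31 in wt ON. The tiles at the mae2 copy beside it, 6 in clr3-CDx2 OFF and 5 in the other groups, had a median of 5.42 in clr3-CDx2 OFF, 3.92 in clr3-CDx2 ON, 5.15 in wt OFF and 3.97 in wt ON. The partial mae2 copy at the right end, with 2 or 3 tiles, had a median of 5.28 in clr3-CDx2 OFF, 3.51 in clr3-CDx2 ON, 5.05 in wt OFF and 3.81 in wt ON. No tile was placed on the copies at the right end of chromosome II. By median, clr3-CDx2 OFF was the highest group at the copies and at the marked tiles of mae1, and wt OFF at mae2. The order at mae2 rests on 5 tiles against 6, and with the non-uniform spot kept its medians were 4.40 in clr3-CDx2 OFF and 4.46 in wt OFF. Over shared tiles, the OFF minus ON difference at the left-end copies was 1.56 (mae1 copy) and 1.52 (mae2 copy) in clr3-CDx2, and 1.06 and 1.25 in wt. Whether DNA bound by the probes of mae1 and mae2 came from these genes or from their copies cannot be told apart with these arrays. The same holds for the copies' probes.

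**Figure D4:**
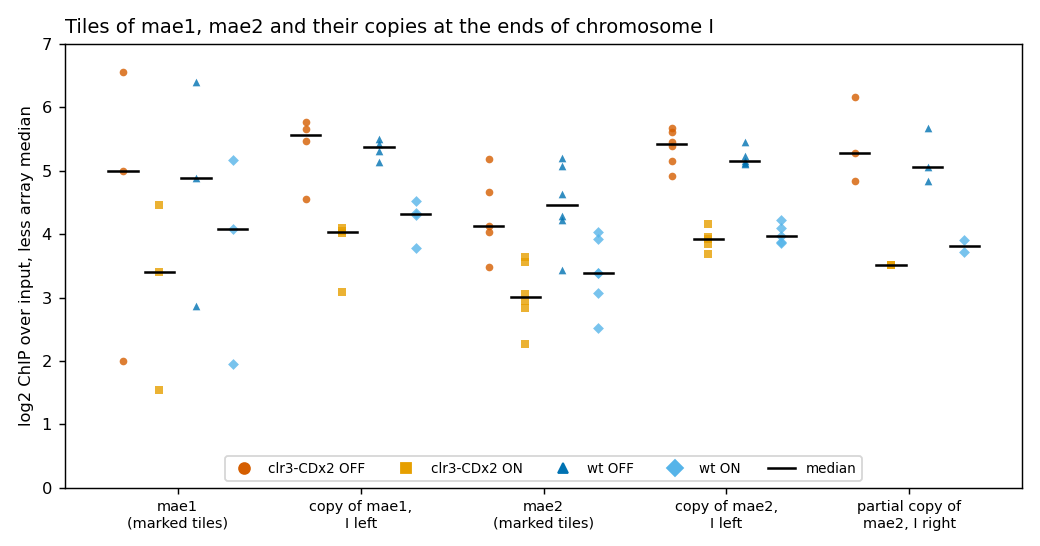
Log2 ChIP over input less the array median at the marked tiles of mae1 and mae2 in their matching stretches and at the tiles of their copies near the ends of chromosome I, by group. Points are tiles and bars medians. The copies have medians of 3.51 to 5.57, and mae1 and mae2 of 3.00 to 4.99.

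How such tiles read elsewhere was described after the values were seen. Outside the pericentromeres, the mating-type contig and the outer 50 kb of chromosomes I and II, 21 tiles lay in a stretch of at least 300 bases that matched a place inside those regions, and 11 of them are at mae1 and mae2. The other 7 marked and 3 unmarked tiles lie 59.8 to 77.3 kb from a chromosome end. Those 7 marked tiles had medians of 3.37 in clr3-CDx2 OFF, 2.00 in clr3-CDx2 ON, 1.77 in wt OFF and 0.67 in wt ON. The 3 unmarked ones had medians of 0.22 in clr3-CDx2 OFF, -1.03 in clr3-CDx2 ON, -0.41 in wt OFF and -0.81 in wt ON. By comparison, mae2 lies about 276 kb and mae1 about 667 kb from an end. Among the 39049 tiles outside those regions with no match, less those left out on an array, a reading of 3 or more was found in 0.173% in clr3-CDx2 OFF, 0.0925% in clr3-CDx2 ON, 0.0436% in wt OFF and 0.213% in wt ON. The regions left out do not take in the gene ura4 on chromosome III, which is described below.

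No measured gene within 10 kb of mae1 or mae2 had a median above 1.03. Around mae1, 8 genes had medians from -1.27 to 1.03, and their largest difference in a comparison was -0.71. The highest was cox1102, which encodes a mitochondrial protein with a part for cytochrome oxidase assembly, with 1.03 in clr3-CDx2 OFF, 0.99 in clr3-CDx2 ON, 0.82 in wt OFF and 0.84 in wt ON. All 8 tiles of cox1102 and all 5 tiles of its neighbour rpn502, a gene of a proteasome subunit, lie in stretches found elsewhere in the genome, and rpn502 read -0.01 to 0.28. Both stood below the marked tiles of mae1 on each array. On the other side npc2, a gene of a lipid transfer protein that overlaps the 3′ end of mae1, read -1.27 to -1.03. Of the others, sst2, of an ubiquitin-specific protease, read -0.13 to 0.12, bud20, of ribosome assembly, -0.35 to -0.11, yip11, of the SMN complex, -0.80 to -0.27, the ribosomal protein gene rpl302 -1.23 to -0.49 and rrp12, of ribosome assembly, -0.94 to -0.56.

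Around mae2, 7 genes had medians from -2.35 to 0.39, and their largest difference was 0.93. The nearest measured neighbours were ent3, annotated as a protein with an ENTH/VHS domain, at -0.70 to -0.41, and SPCC553.12c, a transmembrane transporter, at 0.05 to 0.39. The lowest was tef101, which encodes translation elongation factor 1-alpha, with -1.90 in clr3-CDx2 OFF, -2.35 in clr3-CDx2 ON, -1.12 in wt OFF and -2.05 in wt ON. It was also the gene that differed by 0.93 in wt, and 3 of its 4 tiles are repeated. Of the others, efr3 read -0.48 to -0.38, the UTP-glucose-1-phosphate uridylyltransferase gene ugp1 -0.43 to -0.35, the TFIIA subunit gene toa2 -1.56 to -1.05 and knh3 -1.52 to -0.82. Over the window tiles outside the matching stretch, the median ratio around mae1 was -0.74 in clr3-CDx2 OFF, -0.79 in clr3-CDx2 ON, -0.54 in wt OFF and -0.57 in wt ON. Around mae2 it was -0.81 in clr3-CDx2 OFF, -1.003 in clr3-CDx2 ON, -0.78 in wt OFF and -0.85 in wt ON. None of these 15 genes was counted as higher or lower in a comparison between 2 arrays.

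The wider pathway of malate and pyruvate was not enriched as a list. Of 29 listed genes 28 were measured, and none has a repeated tile. By their annotation 3 of them lie outside the pathway: lsc1 is a cyclin gene here, dic1 a dynein chain and sfc1 a TFIIIC subunit. The median level of the 28 genes was -0.58 in clr3-CDx2 OFF, -0.56 in clr3-CDx2 ON, -0.39 in wt OFF and -0.40 in wt ON, beside 0.08, 0.10, 0.06 and 0.08 over all measured genes in the same order. Without these 3 genes the list medians were -0.66, -0.72, -0.41 and -0.50. The OFF minus ON difference had a list median of 0.07 in both genotypes, beside 0.01 over all measured genes. The list was drawn up with earlier results of these data known.

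Among the genes of succinate oxidation, sdh3, for a membrane subunit of succinate dehydrogenase, was the only list member counted in any comparison. It read 1.14 in clr3-CDx2 OFF, 1.18 in clr3-CDx2 ON, 0.07 in wt OFF and 2.52 in wt ON, so that OFF minus ON was -0.04 in clr3-CDx2 and -2.45 in wt. Genes lower in wt OFF were 0.548% of those measured. Between genotypes sdh3 differed by -1.34 in ON cells and by 1.06 in OFF cells, clr3-CDx2 minus wt. The sdh3 gene lies beside an ectopic domain of H3K9me3 (one outside its usual places) at ura4, on the same arm of chromosome III. Whether its values come from that domain was not tested. ura4 is a gene of uracil synthesis whose expression makes cells sensitive to 5-fluoroorotic acid. It was added here after its values were seen. ura4 read 4.24 in clr3-CDx2 OFF, 3.11 in clr3-CDx2 ON, -0.17 in wt OFF and 3.64 in wt ON, and thus had the same lowest group as sdh3. The sdh1 gene, near the centromere of chromosome I and for the flavoprotein subunit of the same enzyme, had a median of 1.01 over the 4 arrays, next to sdh3 at 1.16, and was 0.64 higher in wt OFF than in wt ON and 0.55 higher in clr3-CDx2 OFF than in clr3-CDx2 ON. The lowest were 2 genes of central carbon metabolism. Pyruvate kinase (pyk1) had -1.36 in clr3-CDx2 OFF, -2.23 in clr3-CDx2 ON, -1.26 in wt OFF and -1.82 in wt ON. Aconitase (aco1) had -1.54 in clr3-CDx2 OFF, -1.79 in clr3-CDx2 ON, -0.95 in wt OFF and -1.34 in wt ON. No other listed gene was counted, among them those for malate dehydrogenase (mdh1), fumarase (fum1), pyruvate carboxylase (pyr1) and the mitochondrial pyruvate carrier (mpc1 and mpc2). A further gene annotated as a malic acid transporter, SPCC794.06, was chosen after its values were seen for its annotation. It lies on the same chromosome arm as mae2, has no repeated tile, and read 0.40 in clr3-CDx2 OFF, 0.81 in clr3-CDx2 ON, 0.91 in wt OFF and 0.88 in wt ON.

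**Figure D5:**
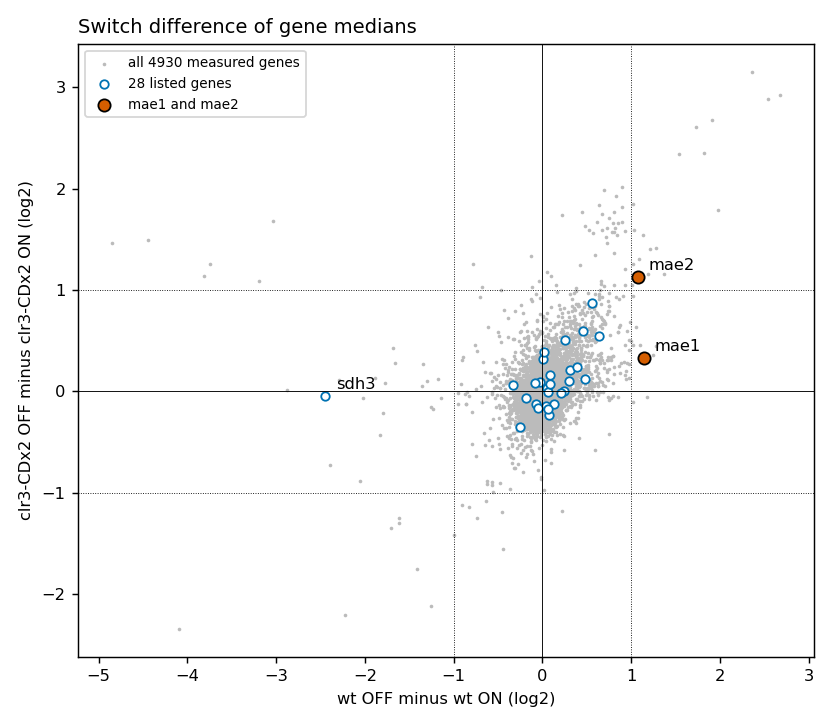
OFF minus ON difference of gene medians (log2) in clr3-CDx2 (vertical axis) against wt (horizontal axis) for 4930 genes, with dotted lines at a difference of 1 in either direction. Open circles are the 28 listed genes and filled circles mae1 and mae2. mae2 lies at 1.07 and 1.13, mae1 at 1.14 and 0.33, of which the value in wt rests on the spot left out there, and sdh3 at -2.45 and -0.04.

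Genes with a pattern like that of mae2 or mae1 over the 4 arrays were found by Euclidean distance between the 4 log2 levels, among genes measured on tiles without repeats. No gene came close to mae2 among 4763. The nearest 5, at distances of 2.59 to 3.14, were emc5, meu27, rad50, chk1 and per1, all beside the centromere of chromosome I or III. The nearest, emc5, read 2.87 in clr3-CDx2 OFF, 1.93 in clr3-CDx2 ON, 2.85 in wt OFF and 2.21 in wt ON, below mae2 on each array. With repeated tiles kept, an alternative chosen after seeing the data, the nearest were mat3-Mc, a silent gene of mating type, at a distance of 0.70, and SPAC750.08c, the partial copy of mae2 at the right end of chromosome I, at 1.24. For mae1 the nearest 5 among 4762 genes, at 0.32 to 0.49, were pan5, naa10, grx2, SPBPB2B2.08 and azr1. Of these, pan5 and SPBPB2B2.08 lie 59.6 and 63.1 kb from the right end of chromosome II, and the others near the centromere of chromosome I. This nearness is to a median that mixes high and low tiles in mae1 and uses 1 tile fewer in wt OFF.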

How the data were processed

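DNA bound by H3K9me3 (Cy5) and whole-cell extract DNA (Cy3) were hybridised on 4 arrays, 1 per group. Per the file headers, the authors deposited Feature Extraction 12.0.3.1 output, with background-subtracted and dye-normalized intensity per channel and a log10 ratio. The value table deposited by the authors holds the log2 ratio of these intensities, uncentred. Here the log2 ratio of the processed intensities, Cy5 over Cy3, was centred on the median tile of each array (0.17 to 0.30), leaving out control spots and spots non-uniform on that array. No loess or quantile step was used. A gene's value is its median over tiles, and a gene was counted when 2 arrays differed by at least 1 and one of them reached 1. With 1 array per group nothing was tested, and precision is limited by this number of arrays.

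The array's build is not given in the sources used here. Tile positions were shifted to ASM294v3 by 1 offset per arm, in steps of 50 bp, at which the marked tiles best matched repeated sequence (correlation 0.83 to 0.91), so a tile may lie some 100 bp from the place given. Matches were found with blastn 2.17.0, at 80% identity over at least 60 bases. The gene summary and the rule for counting a gene were tested on simulated data. Python 3.11.15, numpy 2.4.6, pandas 2.3.3, scipy 1.17.1, R 4.3.3 and limma 3.58.1 were used.

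mae1, mae2 and all gene lists were chosen with earlier results of these data known. Besides mae1 and mae2, genes were named when they lay within 10 kb, when they were pathway genes that were counted or had the 2 highest or 2 lowest medians, or when they were among the 5 genes nearest in level. Other named genes are said to be chosen after their values were seen, or serve as landmarks (clr3, tlh1, the copies). The alternatives were centring on the mode, normexp background correction with an offset of 50 (on the median signals, the columns the files hold), the value table, non-uniform spots kept or left out of all arrays, the mean over tiles, repeated tiles left out, the ChIP channel alone, scaling to an equal pericentromeric median with non-uniform spots kept or left out, gene tiles widened by 1 tile or taken by the annotated span, and positions unshifted.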

Additional observations from a re-analysis of the deposited data

How the results depend on the processing

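Alternatives that used other tiles for mae1 were chosen after seeing the data, as were the pericentromeric scaling without non-uniform spots and leaving a tile that was non-uniform on any array out of all arrays. No paired analysis was possible because the groups share 1 replicate number, so a replicate block has nothing to separate. A fit with genotype as the block, which takes the difference between genotypes as error, was not run. The 234 other alternative values lay within 1.5-fold of the value reported and kept their call. The reasons for the shifts were not tested, except where an alternative uses other tiles. The 4 arrays give no spread between replicates, near-identical copies limit what a probe at mae1 or mae2 can resolve, and the position offsets limit where a tile lies.

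The level of mae1 moved with the choice of tiles. With tiles non-uniform on any array left out of all it was 0.75 in clr3-CDx2 OFF, 0.48 in clr3-CDx2 ON and 0.73 in wt ON. As a mean over tiles it was 1.55 in clr3-CDx2 OFF, 0.72 in clr3-CDx2 ON, 2.29 in wt OFF and 1.08 in wt ON. Outside the matching stretch it was -0.82 in clr3-CDx2 OFF, -1.24 in clr3-CDx2 ON, -0.33 in wt OFF and -1.09 in wt ON, and over all tiles inside the stretch 3.49, 2.47, 3.87 and 3.02 in the same order. With non-uniform spots kept it was 0.37 in wt OFF. OFF minus ON of mae1 in wt was 0.44 with those spots kept, 0.34 with them left out of all arrays, 0.98 with pericentromeric scaling, 0.76 outside the matching stretch and 0.85 inside it, and in clr3-CDx2 it was 1.02 inside it. In OFF cells, clr3-CDx2 minus wt at mae1 was -1.07 with normexp, -0.28 with non-uniform spots kept, -1.13 on the ChIP channel alone, -0.32 with the spots left out of all arrays and -0.38 inside the stretch. Its switch difference in clr3-CDx2 less that in wt was -0.11 with the spots kept, -0.070 with them left out of all and 0.17 inside the stretch.

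For mae2 the level on the ChIP channel alone was 2.87 in clr3-CDx2 OFF, 3.16 in wt OFF and 2.53 in wt ON. OFF minus ON in clr3-CDx2 was 0.90 with normexp, 0.40 on the ChIP channel alone and -0.53 with pericentromeric scaling. In wt it was 0.98 with normexp, 0.63 on the ChIP channel alone, 0.90 with non-uniform tiles left out of all arrays and 0.13 with pericentromeric scaling. That scaling also gave 0.50 for clr3-CDx2 minus wt in ON cells and -0.66 for the switch difference in clr3-CDx2 less that in wt.

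With the pericentromeric median taken without non-uniform spots (2.34 in clr3-CDx2 OFF, 2.11 in clr3-CDx2 ON, 2.50 in wt OFF and 1.41 in wt ON, against 4.35, 2.75, 4.48 and 3.53 with them), OFF minus ON of mae2 was 0.71 in clr3-CDx2 and -1.28 in wt, and of mae1 1.0004 in wt. For mae2, clr3-CDx2 minus wt in ON cells was -2.04 and the switch difference in clr3-CDx2 less that in wt 1.99. Genes higher and lower in wt OFF than ON were then 2 and 87, genes higher and lower in clr3-CDx2 than wt in ON cells 10 and 49, and genes with a larger switch difference in clr3-CDx2 123. The medians without those spots rest on unlike tile sets, of 287, 322, 308 and 295 tiles in the same order of groups. Values scaled by them thus mix a change of tiles with a change of level. Over the 243 pericentromeric tiles measured on all 4 arrays the median in clr3-CDx2 ON was 0.10, too near 0 to divide by, so no values are given for a scaling on them.

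Counts of genes moved as follows. Higher in clr3-CDx2 OFF than ON (43 reported) were 10 on the ChIP channel alone, 4 with pericentromeric scaling and 18 with repeated tiles left out, and lower (8 reported) were 13 in the value table, 3 on the ChIP channel and 27 with the scaling. Higher in wt OFF than ON (9 reported) were 18 with centring on the mode, 19 with normexp, 3 on the ChIP channel, 3 with the scaling and 3 with repeated tiles left out. In ON cells, higher in clr3-CDx2 than wt (17 reported) were 10 on the ChIP channel, 29 with the scaling and 8 with repeated tiles left out, and lower (6 reported) were 0 on the ChIP channel and 2 with the scaling. In OFF cells, higher in clr3-CDx2 (39 reported) were 23 on the ChIP channel and 21 with repeated tiles left out. Lower (0 reported) were 1 with normexp and 1 on the ChIP channel, each time mae1. A larger switch difference in clr3-CDx2 than in wt (34 reported) was counted for 20 genes on the ChIP channel and 19 with the scaling, and a smaller one (0 reported) for 1 with normexp and 4 with the scaling.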
